A study of Mus musculus with 12 samples.

Results

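The 9 genes Rpgr, Rpgrip1, Rpgrip1l, Cep290, Nphp4, Spata7, Iqcb1, Lca5 and Fam161a encode proteins of the photoreceptor connecting cilium or of the ciliary microtubules beside it. They were picked by name, through their Ensembl identifiers in the gene table, and all 9 were present among its 53707 genes and among the 21061 genes that had enough counts to be tested. Their RNA was measured in whole retinas of wild-type C57BL/6J mice aged 28 days, which were separated from the retinal pigment epithelium and kept as explants in Neurobasal-A medium for 48 hours. The medium contained either 5 mM or 25 mM glucose, and each concentration had 3 biological replicates with 2 technical replicates each, 12 libraries in all. Technical replicate 1 of every biological replicate belonged to batch 1 and technical replicate 2 to batch 2. No source used here states whether the biological replicates were separate animals, so p-values describe the spread between these samples. A whole retina mixes many cell types, and in such bulk samples fewer cells of a type and less RNA per cell cannot be told apart.

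The connecting cilium is the transition zone of the photoreceptor, the narrow bridge through which every protein of the light-sensing outer segment must pass. RPGR is held there by RPGRIP1, and SPATA7 keeps the complex in place along the bridge. NPHP4 and RPGRIP1L belong to the nephrocystin modules of transition zones in general, CEP290 spans the gap between microtubules and membrane, and IQCB1 (NPHP5) binds CEP290. LCA5, also called lebercilin, and FAM161A decorate ciliary microtubules. Loss of proteins of this group in humans can lead to retinitis pigmentosa or Leber congenital amaurosis, or to kidney or brain disease.

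The libraries held between 17998905 and 36692484 estimated counts in the low-glucose group, while totals of the high-glucose group ran from 14815285 to 23129541. The retinal identity of the samples showed in 15 of 15 rod markers that were tested, with a summed level of 3789 to 6214 CPM (counts scaled to library size with TMM factors) at 5 mM and 9971 to 13661 at 25 mM. Retinal pigment epithelium markers summed to between 5.23 and 7.89 CPM over the 6 of 9 that could be tested. Replicate 1 at 5 mM was the highest of the 3 replicates at that concentration for 8 of the 9 genes. Its technical replicate 2 was the highest of the 6 libraries at 5 mM, also for 8 of the 9. At 25 mM, technical replicate 1 of replicate 2 was the highest library for 6 of the 9.

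All 9 genes had a higher fitted level at 25 mM than at 5 mM glucose, and 3 of them rose at a false discovery rate (FDR) under 0.05: Rpgrip1, Fam161a and Lca5. The test was the quasi-likelihood test of edgeR on technical replicates summed, with Benjamini-Hochberg adjustment over all genes tested. Of all genes tested, 1.47% rose at this threshold and 1.98% changed in either direction. At an FDR under 0.01 with a fold change over 2, no member and 0 of all genes (0%) passed; DESeq2 placed 1387 genes past the same limits. At an unadjusted p under 0.05, 8 members were higher, against 13.2% of all genes. For 6 members the 3 replicates at 25 mM all lay above the 3 at 5 mM, which held for 16.0% of all genes. The median log2 fold change of the 9 genes was 1.12, where the median of all genes was -0.0095.

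**Figure D1:**
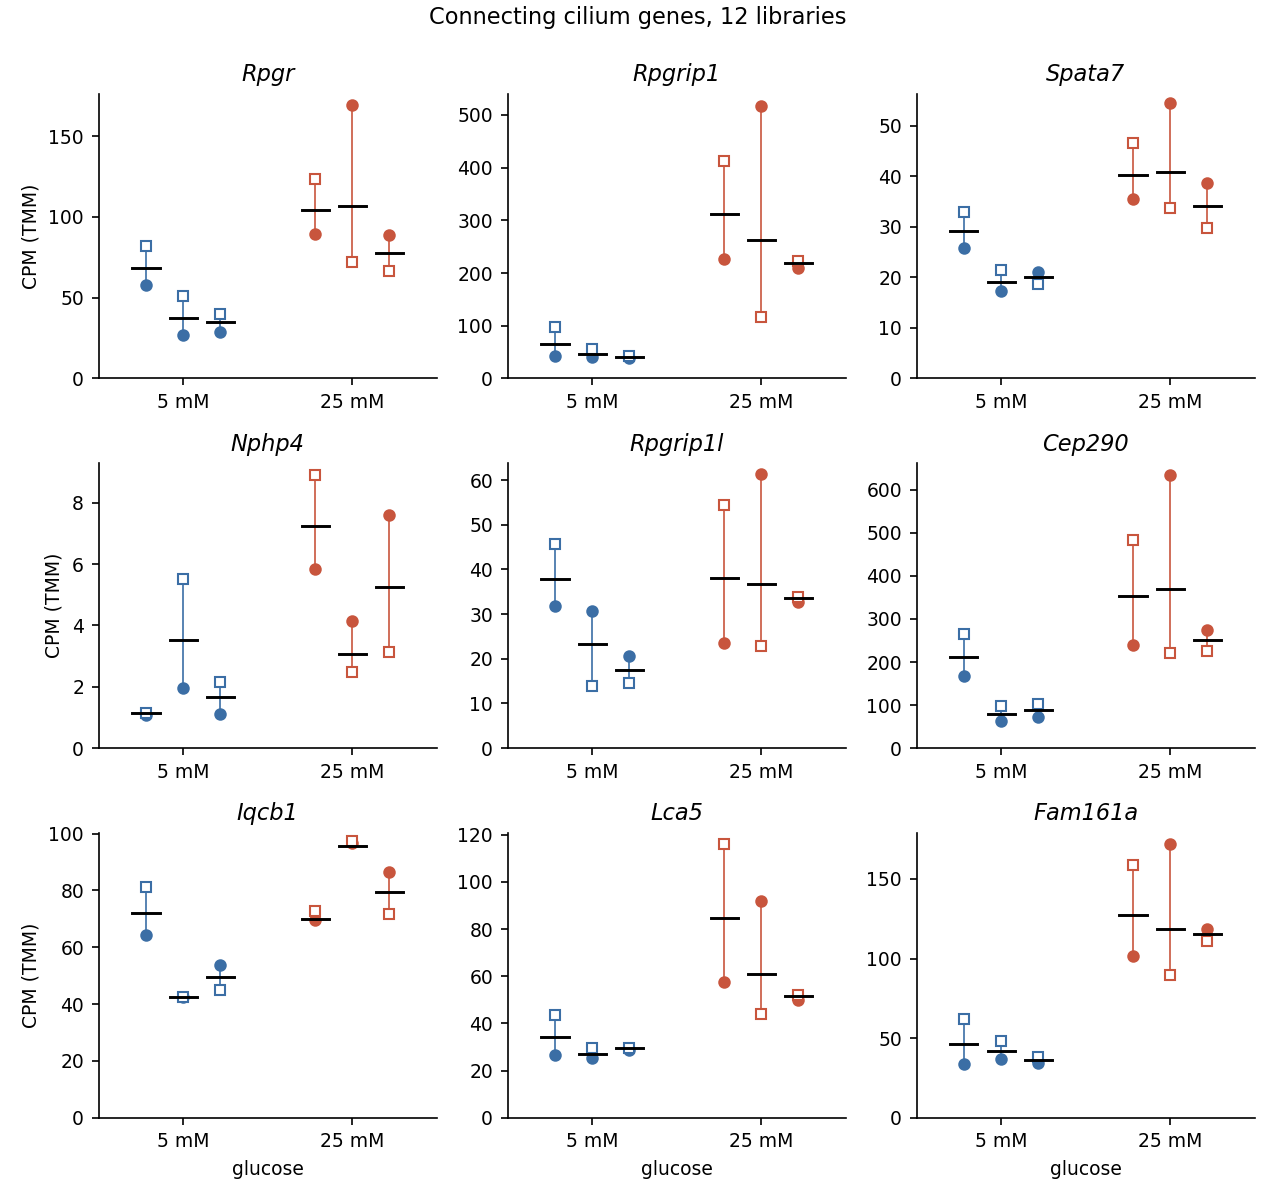
Normalized level (CPM with TMM factors, linear axis from 0) of each gene in the 12 libraries; filled circles are technical replicate 1 (batch 1), open squares technical replicate 2 (batch 2), a thin line joins the pair and a black bar marks the level of the summed pair. All 6 libraries at 25 mM lie above all 6 at 5 mM for Rpgrip1, Lca5 and Fam161a, and the pair of 25 mM replicate 2 spreads widely for Rpgrip1 (516.8 and 117.0 CPM). The share of all genes whose libraries separate in this way was not computed, and libraries of a pair are not independent.

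Rpgrip1, which encodes the scaffold that anchors RPGR in the connecting cilium, changed the most of the 9. Its level was 65.5, 46.8 and 40.8 CPM in replicates 1 to 3 at 5 mM, and 312, 263 and 219 CPM at 25 mM. The groups did not overlap, nor did the single libraries, whose highest value at 5 mM was 97.4 CPM and whose lowest at 25 mM was 117 CPM. The means were 51.0 ± 12.9 and 265 ± 46.4 CPM (SD, n = 3), a log2 fold change of 2.37 ± 0.24 (SE, edgeR quasi-likelihood test, adjusted p = 0.0217). Ordered by log2 fold change from the highest, it stood at rank 91 of the 21061 genes. The deposited gene carries the identifier ENSMUSG00000057132 and lies at chr14:52110704-52163546 on the plus strand (GRCm38).

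Most of the Rpgrip1 signal did not come from transcripts annotated as protein-coding. Retained-intron transcripts held 54.8 ± 11.0% of its estimated transcript counts at 5 mM and 76.3 ± 2.66% at 25 mM, while coding transcripts held 6.43 ± 2.34% and 3.66 ± 0.74% (SD, n = 3). Most genes with enough counts of both kinds also had a higher ratio of retained-intron to coding transcripts at 25 mM. Rpgrip1-218, which had the largest share at 25 mM, is 7878 bases long and contains a fused exon of 4761 bases that takes in 3 exons and 2 introns of the coding transcript Rpgrip1-202, 4005 of those bases being intronic. The share of Rpgrip1-218 was 23.3 to 38.7% at 5 mM and 44.4 to 55.5% at 25 mM, without overlap. The share of Rpgrip1-217, a short transcript from the 3′ end marked for nonsense-mediated decay, was 33.0 ± 12.3% at 5 mM and 15.2 ± 2.63% at 25 mM, also without overlap, and at 5 mM its mean exceeded the 30.3% of Rpgrip1-218. Of its 1733 bases, 1057 lie in exons of Supt16 on the opposite strand. Whether the counting used the strand is not given in the sources used here. The retained-intron transcript Rpgrip1-209 shares 925 of its 3212 bases with Supt16, while Rpgrip1-218 shares 0 bases with it. Counted from coding transcripts alone, Rpgrip1 had a log2 fold change of 1.90 and did not pass the threshold (adjusted p = 0.102).

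The promoters of the 9 genes were searched for short motifs. In windows from 250 bases before to 50 after each RefSeq start site (GRCm38.p6, 14 windows for the 9 genes), TAATCC, the core site of the photoreceptor factors CRX and OTX2, was present on either strand in 1 of the 14, that of Rpgrip1, against 7.06% of 32851 promoter windows, so the count does not stand apart. The match lies on the reverse strand, so it reads GGATTA in the stretch of 30 bases shown at chr14:52110863-52110892, plus strand, with the match in capitals.
Rpgrip1: gctaaaaggcctGGATTAgtgtctcctcta
GGGCGG, the GC box of SP and KLF factors, was found in 7 of the 14 windows, against 35.7% of all windows. These belonged to 6 genes (Rpgr, Spata7, Nphp4, Cep290, Iqcb1 and Lca5), and the windows of Rpgrip1, Rpgrip1l and Fam161a had none. Iqcb1 held 5 copies, Spata7 3 and Rpgr 3 in 1 window and 1 in another. The stretches with most of those of Iqcb1 and Spata7 stand at chr16:36828280-36828384 and chr12:98628082-98628121, plus strand, with GGGCGG or its reverse complement in capitals where neighbouring copies may overlap.
Iqcb1: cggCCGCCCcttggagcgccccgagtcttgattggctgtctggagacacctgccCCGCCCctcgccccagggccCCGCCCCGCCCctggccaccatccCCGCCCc
Spata7: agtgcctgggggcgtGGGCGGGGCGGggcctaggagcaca
GTTGCC, an element of the site of the RFX factors that drive ciliary genes, was present in 3 of the 14 windows, against 12.5% of all windows. These belonged to Nphp4 and Lca5, and the windows of Lca5 overlap and hold the same site. The full X-box was present in none of the 9 genes (1.31% of all windows). These are matches of letters only.

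Rpgr encodes the regulator that gives the complex its name. It stood at 68.7, 37.6 and 34.7 CPM at 5 mM and at 104, 107 and 77.7 CPM at 25 mM. The replicates did not overlap, with 5 mM replicate 1 well above the other two at that concentration, but among single libraries only 4 of the 6 at 25 mM exceeded every library at 5 mM. The log2 fold change was 1.03 ± 0.28 and missed the threshold (SE, edgeR, adjusted p = 0.0752). Rpgr lies at chrX:10073621-10216920 on the minus strand and shares 208 exonic bases with Srpx on the same strand, so reads there are uncertain.

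Rpgr makes transcripts with and without a long purine-rich exon, which is wholly coding in Rpgr-201 and Rpgr-204. Whether these match the form of RPGR known from photoreceptors was not examined. In GRCm38 this exon has 879 bases (chrX:10176003-10176881), 67.7% of them purines, against 54.2% in the other 2238 coding bases of Rpgr-201. Coding transcripts with the exon (2 annotated forms, against 4 without) held 71.7, 67.2 and 72.2% of the coding counts at 5 mM and 77.1, 78.6 and 80.3% at 25 mM. The replicates did not overlap, and the means were 70.4 ± 2.73 and 78.7 ± 1.59% (SD, n = 3; exact permutation test, two-sided, p = 0.1, the smallest that 3 against 3 allow). Within batches the libraries did overlap: 60.6 to 77.0% against 69.9 to 83.8% in batch 1, and 68.8 to 71.3% against 71.0 to 82.7% in batch 2. This split was chosen after the transcript values had been seen.

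Spata7, whose protein stabilizes the RPGR complex along the connecting cilium, had 29.1, 19.1 and 19.98 CPM at 5 mM and 40.2, 40.8 and 34.2 CPM at 25 mM. The replicates did not overlap. The log2 fold change was 0.76 ± 0.22 and missed the threshold (SE, edgeR, adjusted p = 0.0820). Retained-intron transcripts made up 21.4 ± 3.08% of its transcript counts at 5 mM and 25.5 ± 0.68% at 25 mM (SD, n = 3), the next largest such share among the 9 after that of Rpgrip1.

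Cep290, which encodes the large coiled-coil protein of the links between axoneme and membrane, was the most abundant of the 9 by CPM at both concentrations. Its level was 211, 78.8 and 88.8 CPM at 5 mM and 353, 370 and 251 CPM at 25 mM. The replicates did not overlap, although 5 mM replicate 1 came close to the lowest value at 25 mM, and only 3 of the 6 libraries at 25 mM exceeded every library at 5 mM. The log2 fold change was 1.36 ± 0.38 (SE, edgeR, adjusted p = 0.0767). Without 5 mM replicate 1 it was 1.95 and passed the threshold (adjusted p = 0.0079), and without 25 mM replicate 1 it was 1.31 (adjusted p = 0.215). Cep290 shares 881 exonic bases with 4930430F08Rik on the opposite strand, and the sources used here do not say whether the counting used the strand.

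The transcripts of Cep290 differed between the concentrations in a short exon. Cep290-201 and Cep290-206 are alike in every base except for exon 7 of Cep290-201, which has 21 bases (chr10:100495641-100495661, plus strand, GRCm38) and is skipped in Cep290-206. Its length is a multiple of 3, so that the coding sequence is 7437 bases with it and 7416 without. The exon is shown in capitals between 30 bases of each neighbouring exon, above the junction that skips it, both from the GENCODE M21 transcripts.
Cep290-201: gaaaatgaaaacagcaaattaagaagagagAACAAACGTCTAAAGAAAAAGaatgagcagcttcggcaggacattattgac
Cep290-206: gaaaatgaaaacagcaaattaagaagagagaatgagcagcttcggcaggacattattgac
Transcripts with the exon (Cep290-201 and Cep290-210) held 30.5, 24.1 and 23.7% of the counts of these and Cep290-206 at 5 mM, and 62.3, 57.7 and 59.0% at 25 mM; a short further coding transcript, Cep290-204, was left out. The replicates did not overlap, and the means were 26.1 ± 3.81 and 59.7 ± 2.40% (SD, n = 3; exact permutation test, two-sided, p = 0.1, the smallest possible). Most of the difference lay in Cep290-201, at 4.80 ± 4.25% of the gene's counts at 5 mM and 33.9 ± 3.41% at 25 mM, and in Cep290-206, at 64.1 ± 5.03 and 33.7 ± 1.88%.

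The technical replicates were far less alike than the summed values. In 25 mM replicate 2 the share with the exon was 79.9% in technical replicate 1 and 14.0% in technical replicate 2, the lowest of all 12 libraries. The pairs of the other biological replicates differed by 15.3 points or more. In batch 1 the concentrations did not overlap (15.1 to 35.2% against 46.9 to 79.9%), whereas in batch 2 they did (15.6 to 37.8% against 14.0 to 70.0%), and 5 of the 6 libraries at 25 mM lay above every library at 5 mM. The exon was singled out after these values had been seen, and the estimates rest on how the quantification divided reads between near-identical transcripts.

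**Figure D2:**
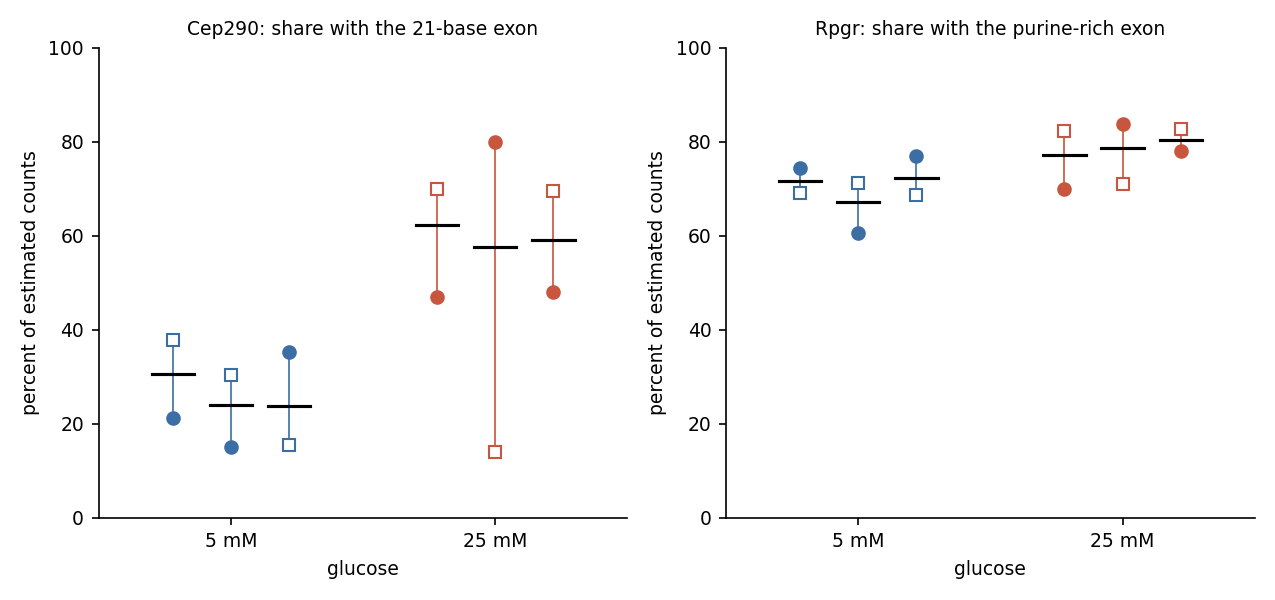
Percent of estimated transcript counts from transcripts that contain the short exon of Cep290 (left, of its 3 main coding transcripts) and the purine-rich exon of Rpgr (right, of its coding transcripts); filled circles are technical replicate 1, open squares technical replicate 2, black bars the summed pair. The black bars separate the concentrations in both panels, while the technical replicates of 25 mM replicate 2 stand at 79.9 and 14.0% for Cep290.

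Nphp4 encodes a scaffold of the nephrocystin module and was by far the least abundant of the 9. It had 1.14, 3.53 and 1.66 CPM at 5 mM and 7.23, 3.07 and 5.27 CPM at 25 mM. The replicates overlapped, since 25 mM replicate 2 lay below 5 mM replicate 2. The smallest summed count of a replicate was 63, and the log2 fold change of 1.30 ± 0.48 missed the threshold (SE, edgeR, adjusted p = 0.129). It was 2.08 in batch 1, where it passed the threshold (adjusted p = 0.0159), and 0.71 in batch 2, where it did not (adjusted p = 0.635).

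Rpgrip1l is the paralog of Rpgrip1 and serves transition zones of cilia throughout the body. It had 37.9, 23.3 and 17.5 CPM at 5 mM and 38.0, 36.8 and 33.6 CPM at 25 mM. The replicates overlapped, with 5 mM replicate 1 level with the highest at 25 mM. Its log2 fold change of 0.46 ± 0.28 was the lowest of the 9 (SE, edgeR, adjusted p = 0.302). Without 5 mM replicate 1 it was 0.82 (adjusted p = 0.0235), and without 5 mM replicate 3 it was 0.23 (adjusted p = 0.677).

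Iqcb1 encodes a calmodulin-binding partner of CEP290. Its level was 72.1, 42.5 and 49.4 CPM at 5 mM and 69.9, 95.6 and 79.3 CPM at 25 mM. The replicates overlapped in that 5 mM replicate 1 exceeded 25 mM replicate 1. The log2 fold change was 0.58 ± 0.23 (SE, edgeR, adjusted p = 0.151). Its retained-intron share was small, 1.42 ± 0.064% at 5 mM and 2.19 ± 0.34% at 25 mM (SD, n = 3), without overlap.

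Lca5 encodes lebercilin, a microtubule-associated protein of the cilium. It had 34.2, 27.2 and 29.4 CPM at 5 mM and 84.7, 61.2 and 51.7 CPM at 25 mM. Neither replicates nor single libraries overlapped, but the margin between libraries was small: the highest at 5 mM had 43.8 CPM and the lowest at 25 mM 44.2 CPM. The log2 fold change was 1.12 ± 0.22 and passed the threshold narrowly (SE, edgeR, adjusted p = 0.0475). With limma-voom the adjusted p was 0.0539.

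Fam161a encodes a microtubule-binding protein of the ciliary base and connecting cilium. Its level was 46.2, 41.9 and 36.5 CPM at 5 mM and 127, 119 and 116 CPM at 25 mM, the tightest replicates of the 9 at 25 mM relative to their mean. Single libraries lay between 34.1 and 61.9 CPM at 5 mM and between 90.0 and 172 CPM at 25 mM, without overlap. The log2 fold change was 1.54 ± 0.16 (SE, edgeR, adjusted p = 0.0217). All 7 of its annotated transcripts are coding, so all 18155 estimated counts of its matched transcripts were coding by annotation. Its gene-level count was 21054. In the fit of coding transcripts alone, which leaves out no annotated transcript of Fam161a, the log2 fold change was 1.80 (edgeR, adjusted p = 0.0290).

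The calls depended on single replicates. When replicate 2 or 3 of the 5 mM group was left out, or replicate 1 or 2 of the 25 mM group, 0 members and 0 of all genes passed an FDR of 0.05 in edgeR, with adjusted p for Rpgrip1 of 0.101 to 0.159, for Fam161a of 0.101 to 0.159 and for Lca5 of 0.134 to 0.186. At an unadjusted p under 0.05, these 4 analyses still placed 6 or 7 members, against 17.6 to 18.8% of all genes in either direction. Without 5 mM replicate 1, by contrast, 8 members passed, all but Nphp4, and so did 26.6% of all genes. Without 25 mM replicate 3 the same count of members as before, 3, passed, with 2.27% of all genes. All 9 log2 fold changes stayed above 0 under the 22 alternatives, between 0.23 and 2.96.

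Within batches the fold changes differed in size. The median log2 fold change of the 9 genes was 1.60 in batch 1, where 7 passed an FDR of 0.05 (17.3% of all genes), and 0.71 in batch 2, where 0 passed, as did 0 of all genes; at an unadjusted p under 0.05, 3 members and 11.7% of all genes in batch 2 were past it. It was larger in batch 1 for 8 of 9 genes, Rpgrip1l being the other. The difference between batches, tested with limma on technical replicate 1 minus technical replicate 2, passed for no member (adjusted p from 0.279 to 0.877) and for 0 of 21061 genes, of which 16.0% had an unadjusted p under 0.05. Rpgr had the lowest adjusted p of the 9, with a log2 fold change of 1.60 in batch 1 and 0.59 in batch 2.

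**Figure D3:**
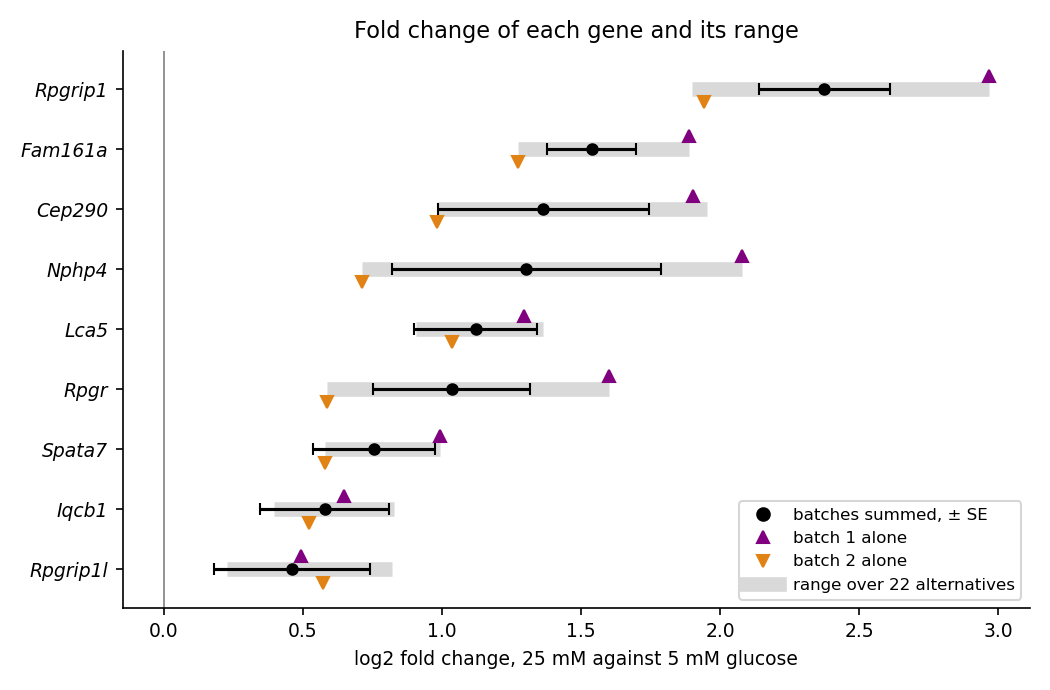
Log2 fold change of each gene, 25 mM against 5 mM glucose: black points are the main values with their standard errors, triangles the batches analysed alone, and grey bars the range over 22 alternative analyses. All values lie above 0, Rpgrip1 stands highest at 2.37, and batch 1 exceeds batch 2 for every gene but Rpgrip1l.

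Per length, the order of the 9 genes shifted between concentrations. As CPM per kb of count-weighted transcript length, the levels at 5 mM were led by Iqcb1 (27.4 ± 7.77), Fam161a (21.4 ± 2.51) and Cep290 (17.7 ± 10.3; SD, n = 3), whose replicates overlapped between neighbours. Rpgrip1 stood in place 6 with 10.5 ± 2.65. At 25 mM the order was led by Fam161a (62.1 ± 3.08), Rpgrip1 (54.4 ± 9.52), Cep290 (45.6 ± 9.08) and Iqcb1 (41.0 ± 6.53), again with overlap between neighbours, and all 4 lay above Rpgr (28.02 ± 4.69) without overlap. Lca5 stood in place 7 at both concentrations, Rpgrip1l in place 8 and Nphp4 in place 9, the last at 0.51 ± 0.30 and 1.25 ± 0.50. With the union of annotated exons as the length, Cep290 came first at both concentrations.

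Rod markers rose along with the 9 genes. Of 15 rod markers, 8 passed an FDR of 0.05, all higher at 25 mM, with a median log2 fold change of 1.06 over the list. Among those of lowest FDR were the phosphodiesterase subunit Pde6b (1.65, adjusted p = 0.0217), the channel subunit Cnga1 (2.12, adjusted p = 0.0261), the transcription factor Nrl (1.33) and the phosphoprotein Pdc (1.61), on the log2 scale in edgeR. The list includes Rp1, which another list also holds. Rp1 went from 250 ± 195 CPM at 5 mM to 2708 ± 1267 CPM at 25 mM (SD, n = 3), so it weighs heavily in the summed rod level at 25 mM. The part of rod RNA content in the values of the 9 genes was not tested beyond the ratio that follows.

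Relative to the summed CPM of the rod markers, only Rpgrip1 of the 9 genes separated the concentrations when all replicates were kept. Its log2 ratio was -6.66 ± 0.70 at 5 mM and -5.41 ± 0.12 at 25 mM (SD, n = 3), a difference of 1.25 with no overlap (exact permutation test, two-sided, p = 0.1, the smallest possible). For the other 8 genes the difference lay between -0.61 and 0.40 and the replicates overlapped. These limits rested on single replicates: without 5 mM replicate 1 they were -0.11 and 1.00, and Cep290 (1.00), Fam161a (0.69) and Rpgr (0.47) no longer overlapped either. Without 5 mM replicate 3 they were -0.92 and 0.25, and Rpgrip1l (-0.92) did not overlap. Rpgrip1 remained apart with each replicate left out, at 1.04 to 1.65. In 5 mM replicate 1 the rod sum was the lowest of all, 3789 CPM, while 8 of the 9 genes had their highest value at 5 mM in that replicate. With the mean of the log2 levels of the rod markers in place of the sum, Rpgrip1 was again the only gene without overlap. Both rod measures include Rp1, and the ratios were not computed without it. The rod sum itself did not overlap between the concentrations, and the share of all genes that separate on this ratio was not computed.

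**Figure D4:**
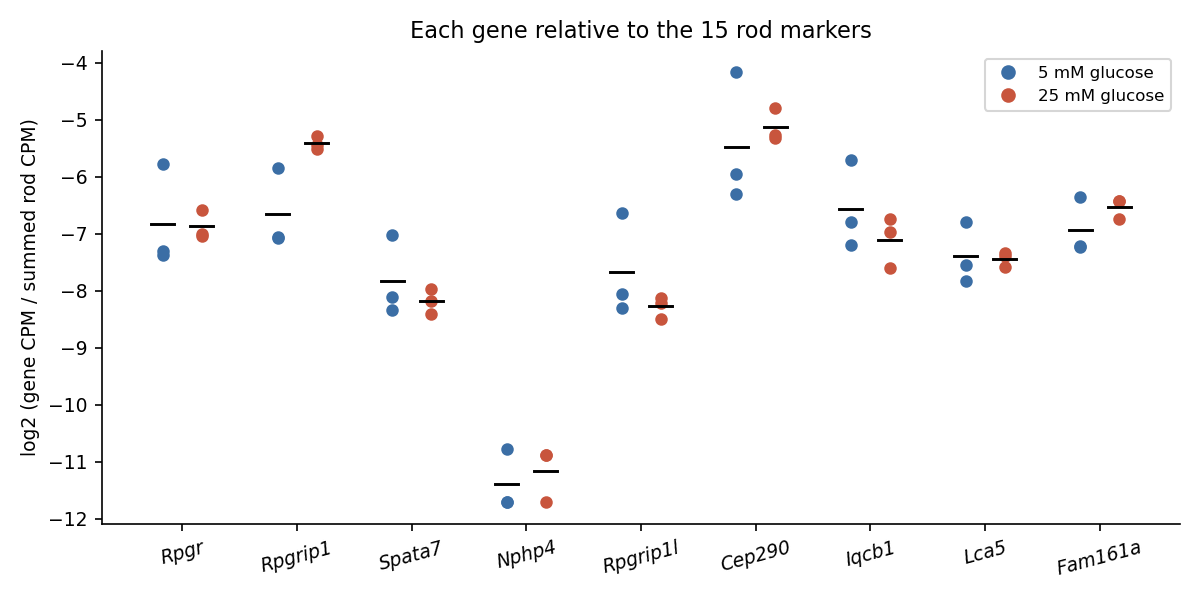
Log2 ratio of each gene's CPM to the summed CPM of 15 rod markers in the 6 biological replicates; points are replicates, black bars their means, blue 5 mM and red 25 mM glucose. The points of Rpgrip1 do not overlap, and the highest blue point of every gene except Nphp4 is 5 mM replicate 1.

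Markers of other retinal cells were mostly called neither higher nor lower. Of 10 cone markers 7 were higher, with a median log2 fold change of 0.37, and 1 passed, the opsin Opn1mw (1.75, edgeR adjusted p = 0.0420). The other cone opsin, Opn1sw, chosen for mention after its value was seen, stood at -1.01 without overlap (edgeR adjusted p = 0.0704). At an FDR of 0.05, 0 passed of the tested bipolar, amacrine, ganglion, horizontal, Mueller glia, vascular, microglia and pigment epithelium markers. Higher at 25 mM were 6 of 10 bipolar (median log2 fold change 0.40), 3 of 8 amacrine (-0.15), 6 of 9 ganglion (0.17), 2 of 5 horizontal (-0.22), 3 of 9 Mueller glia (-0.33), 1 of 10 vascular (-1.73), 0 of 9 microglia (-0.97) and 2 of 6 pigment epithelium markers (-0.37). The genes of lowest FDR were Gad1 (-0.92) for amacrine, Rbpms (-1.68) for ganglion and Onecut2 (0.83) for horizontal cells, Vim (-1.51) for Mueller glia, Pdgfrb (-2.46) for vessels and Rgr (1.41) for pigment epithelium, on the log2 scale with adjusted p from 0.0522 to 0.212; Rbpms, Onecut2 and Rgr went against most of their lists. At an unadjusted p under 0.05 in edgeR, 8 of 10 vascular and 6 of 9 microglia markers were lower at 25 mM. Of all genes, 28.7% passed this limit in either direction and 13.2% were higher. The vascular sum lay between 1207 and 2044 CPM at 5 mM and between 615 and 1093 CPM at 25 mM, the microglia sum between 319 and 413 and between 128 and 250 CPM, and the Mueller glia sum between 3204 and 4363 and between 2070 and 3012 CPM. Without Vim, the Mueller glia sums overlapped, at 1940 to 2154 and 1598 to 2086 CPM. The part of these shifts in the levels of the 9 genes was not tested.

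Other genes of the cilium gave a wider spread. Over 8 lists with 64 genes tested, 48 were higher at 25 mM, 6 rose at an FDR under 0.05 and 0 fell. The axoneme genes of the outer segment came closest to the 9: 7 of 7 tested were higher with a median log2 fold change of 1.39, and 4 passed, Mak (2.86, adjusted p = 0.0261), a kinase that sets axoneme length, Cdhr1 (1.52), a cadherin of the disc base, Rp1l1 (1.39) and Rp1 (3.44), microtubule proteins of the axoneme. Among the MKS module of the transition zone, 14 of 15 were higher, with a median of 0.40, and Cc2d2a alone passed (1.29, adjusted p = 0.0326). In the distal appendage and basal body list 7 of 12 were higher, with a median of 0.18, and Cep164, a distal appendage protein, passed (1.57, adjusted p = 0.0439). No gene passed in the other 5 lists, where 3 of 5 were higher in the NPHP and inversin modules (median 0.10; lowest FDR for Anks6, -0.74), 4 of 6 among RPGR partners (0.09; Ttll5, 0.68), 7 of 8 in the centriolar inner scaffold (0.30; Poc1b, 0.65), 2 of 6 among lebercilin partners (-0.15; Ofd1, 0.63) and 4 of 5 ciliogenesis transcription factors (0.68; Rfx3, 0.68). The adjusted p of those named genes lay between 0.0858 and 0.211, and differences between the lists were not tested.

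**Figure D5:**
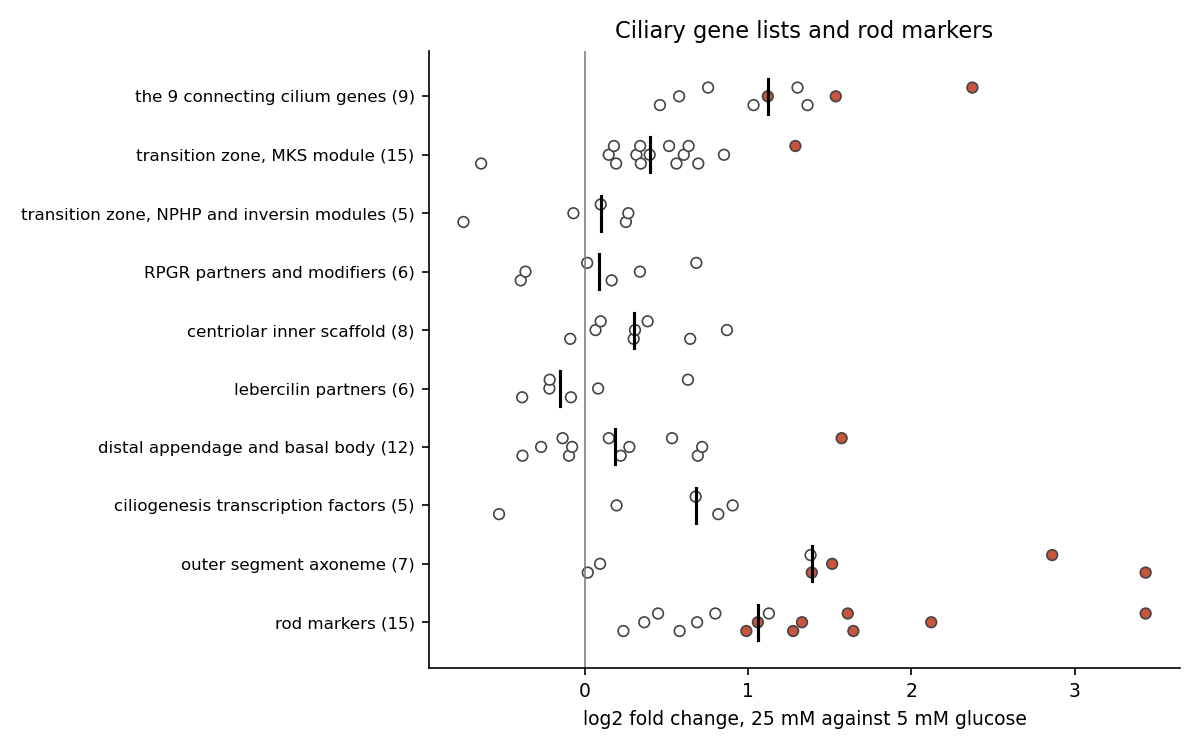
Log2 fold change, 25 mM against 5 mM glucose, of every tested gene in the 9 connecting cilium genes, 8 lists of related ciliary genes and the rod markers; filled points passed an FDR of 0.05 in edgeR, black bars are list medians and the number tested stands in parentheses. Medians lie at 1.12 for the 9 genes, 1.39 for the outer segment axoneme, 1.06 for rod markers and between -0.15 and 0.68 for the other lists.

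A shift toward retained-intron transcripts was general in these libraries and not particular to the 9 genes. Of 7046 genes with at least 60 estimated counts of each kind, 84.3% had a higher ratio of retained-intron to coding transcripts at 25 mM (median log2 difference 0.53), and in 33.6% the ratio was higher without overlap. Retained-intron transcripts could be set against coding ones in 7 of the 9 genes, whose median difference was 0.34. The log2 ratio of the former to the latter was higher at 25 mM in 6 of the 7 and did not overlap in 4: Rpgrip1 (difference 1.27), Iqcb1 (0.64), Cep290 (0.50) and Spata7 (0.34; exact permutation test, two-sided, p = 0.1 in each, the smallest possible). It overlapped in Rpgr (0.34), Lca5 (0.20) and Rpgrip1l (-0.01). Of the 69 tested transcripts of the 9 genes, 0 passed an FDR of 0.05 in edgeR, as did 0 of all 64990 transcripts. At an unadjusted p under 0.05, 37 of the 69 were higher, where 7.81% of all transcripts were. Among 23 transcripts that held at least 10% of their gene's counts, 5 had shares without overlap, as did 14.9% of 34932 such transcripts of all genes: Cep290-201, Cep290-206, Rpgrip1-218, Rpgrip1-217 and Iqcb1-202 (16.6 ± 2.78% at 5 mM and 11.1 ± 1.56% at 25 mM).

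Across the 12 libraries the 9 genes varied together. Pearson's r of log2 CPM between pairs ranged from 0.13 to 0.99 over 36 pairs, with a median of 0.78, and after the mean of each concentration was taken out it ranged from -0.61 to 0.96, with a median of 0.71. Nphp4 was the exception, with a median r of 0.04 to the others within concentrations. The genes whose profile was most like the mean of the 9 were Rp1 (r = 0.995), Gm17333 (0.991), Kdm4c (0.991), Impg2 (0.990) and Rnf32 (0.989). The 12 points share library preparation, depth and, in pairs, the same biological sample, so these values are a description. All 9 genes also span more of the genome than the median tested gene (median 52.8 against 18.9 kb). By count-weighted transcript length, 6 of the 9 exceed the median of all tested genes, 2.54 kb. In GC content 8 lie below the median of 48.7%, Rpgrip1 (47.9%) and Fam161a (47.8%) only narrowly, and Nphp4 at 58.7% is the other.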

How the data were processed

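Total RNA from retinal explants was converted to libraries with a stranded low-input kit (4 ng of RNA, 13 PCR cycles, per the labels) and sequenced as read pairs. The authors deposited estimated counts (expected counts) per gene and per transcript, not normalized between libraries. The build is GRCm38 per the labels; aligner, quantification tool, annotation and use of strand are not given in the sources used here. The planned design spoke of counts; 100% of nonzero gene values were not whole, so summed values were rounded. Names, positions and transcript types came from GENCODE M21, which gave a symbol to 48766 gene identifiers (90.8%) and matched 92.0% of transcripts. For 92.1% of genes over 1000 counts the gene value lay within 5% of the summed transcript values, and 0 sample columns were left unused.

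Technical replicates were summed, genes filtered with filterByExpr and normalized by TMM, and 3 biological replicates per concentration tested with edgeR 4.0.16 in R 4.3.3 by quasi-likelihood in its earlier (legacy) form. CPM uses TMM factors, log2 CPM a prior count of 2. Limma 3.58.1 tested the difference between batches. Ratios and shares were compared over the 6 biological replicates by exact permutation; the smallest two-sided p is 0.1. The log2 ratio of transcript kinds used a pseudocount of 0.5. Python 3.11.15 made tables and plots. On simulated data for this comparison with 20736 genes and a biological coefficient of variation of 0.3 (0.297 measured here), 18 of 100 genes changed by a fold of 2 and 96 of 100 changed by a fold of 4 were called, with 1 false call. Amplified reads without molecular identifiers are not independent molecules, so depth limits counting error only.

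The 9 genes and all gene lists were chosen with earlier results of these data known. Named were all 9 genes; in each list the genes at an FDR under 0.05, at most the 4 of lowest FDR, or else the 1 of lowest FDR; the 5 genes most like the 9 by Pearson's r; and transcripts with at least 10% of their gene's counts. The exon shares of Cep290 and Rpgr and the retained-intron shares of Rpgrip1, Spata7 and Iqcb1 were singled out after their values were seen. Alternatives covered other normalizations, DESeq2 1.42.0, limma-voom, the newer quasi-likelihood method, other filters, the 12 libraries with batch as a covariate, each batch alone, leaving out a library or a replicate, a replicate block, adjustment for GC content and length, transcript sums and coding transcripts alone. The genes of lowest FDR in the bipolar and microglia lists are not reported here.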

Additional observations from a re-analysis of the deposited data

Results flagged for a closer look

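Each gene's 6 libraries at a concentration were searched for a library far from the other 5, by the gap to its nearest neighbour over the whole range (Dixon's test). In 3 of 18 groups of libraries the gap was larger; chance alone flags about 1 in 20 such groups, and libraries of the same biological replicate are not independent. For Rpgrip1 at 5 mM, technical replicate 2 of replicate 1 had 97.4 CPM against 39.5 to 54.9 CPM in the other 5 libraries (gap over range 0.734). The same library had 43.8 CPM of Lca5 against 25.2 to 29.6 CPM (0.763). For Nphp4 at 5 mM, technical replicate 2 of replicate 2 had 5.53 CPM against 1.08 to 2.17 CPM (0.755). Leaving out technical replicate 2 of 5 mM replicate 1 gave a log2 fold change of 2.61 for Rpgrip1 (edgeR, adjusted p = 0.0043) and 1.23 for Lca5 (adjusted p = 0.0251).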

How the results depend on the processing

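All 198 log2 fold changes of the 9 genes under 22 alternatives were above 0; 18 of them lost and 32 gained the threshold of 0.05. The 417 genes and 3 members past that threshold became 3489 and 7 with DESeq2, 1979 and 5 without a filter, 2918 and 7 with 12 libraries and batch as a covariate, 3279 and 7 in batch 1 alone, 0 and 0 in batch 2 alone, 1731 and 6 without technical replicate 2 of 5 mM replicate 1, 2904 and 7 with correction for GC content and length, and 54 and 1 with protein-coding transcripts alone. Leaving out 1 biological replicate gave 0 to 5845 genes and 0 to 8 members. Past an FDR of 0.01 and a fold of 2 stood 1387, 275, 109, 367, 56 and 177 genes under DESeq2, no filter, 12 libraries, batch 1, the left-out library and the GC correction, and 0 to 108 with a replicate left out, against 0 in the main analysis. Batch 1 alone gave a members' median of 1.60 on the log2 scale and batch 2 alone 0.71, against 1.12. The fit of the 12 libraries had no term for the biological replicate, so it treated technical replicates as independent samples. The cause of the shifts between settings was not tested.

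With a replicate block 990 genes and 5 members passed, and with the replicate block and the GC and length correction together 3276 genes and 7 members (625 at the stricter limits). In deviations from the group means, same-numbered replicates correlated at -0.014, -0.449 and 0.285, and differently numbered ones at -0.419 to 0.511. With 3 replicates per group these values constrain one another, so they cannot settle whether the numbers pair the samples. The correction gave Nphp4 a log2 fold change of 1.97, against 1.30. The difference between concentrations in the log2 ratio to rod markers changed sign for 4 of the 9 genes when a replicate was left out. Depth was smallest for Nphp4, and transcript estimates divide shared reads.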
